A study of Mus musculus with 62 samples.

Results

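Myostatin and activin signaling was described in diaphragm muscle through 10 genes, chosen by name as ligands (Mstn, Gdf11, Inhba, Inhbb), type II receptors (Acvr2a, Acvr2b), secreted antagonists (Fst, Fstl3) and SMAD proteins (Smad3, Smad7). All 10 were among the 47643 rows of the expression table, and all 10 were among the 13578 genes that passed a filter of 1 TPM or more in 5 or more mice (TPM is a share of the transcripts in a library, corrected for their length). RNA was sequenced from the diaphragm of 62 female mice, 1 library per mouse, at 2, 4, 6 and 8 weeks after injection of cachectic melanoma cells, of non-cachectic melanoma cells, or of a mock control. Each of the 12 conditions held 5 mice, except cachectic mice at 8 weeks with 7. The mice were 2 months old, and the study asked how the muscle transcriptome moves as cachexia, the wasting that accompanies cancer, progresses.

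The labels name the strain C57BL6/J, whereas the design text and the methods name immunodeficient NCI Ath/nude mice. Both melanomas are xenografts derived from patients, and each tumor group rests on 1 such xenograft, so cachexia and the identity of the tumor cannot be told apart. Markers of skeletal muscle fibers were abundant in every library, with a summed level of 46943.9 to 109438 TPM over 12 genes. Because the tissue was sequenced in bulk, fewer cells of a type and less RNA per cell cannot be told apart.

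Myostatin and its close relative GDF11 are secreted ligands of the TGF-β family, and INHBA and INHBB are the subunits that form activin A and activin B. These ligands bind type II receptors such as ACVR2A and ACVR2B, and the signal passes through a type I receptor to SMAD2 and SMAD3, while SMAD7 inhibits the pathway and follistatin (FST) and FSTL3 trap the ligands outside the cell. In skeletal muscle, myostatin is known as a brake on muscle growth, and activins can also drive loss of muscle mass.

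The promoters of Mstn and Inhbb are shown because they belong to the most abundant ligand and to the ligand that rose in cachectic mice, and because the genes lie on the same chromosome. In GRCm38, Mstn lies on the plus strand of chromosome 1 at chr1:53061640-53068079 with 3 exons, and Inhbb on the minus strand at chr1:119415465-119422248 with 2 exons. The 250 bases before each start, from RefSeq (GRCm38.p6), are chr1:53061390-53061639 for Mstn and chr1:119422249-119422498 for Inhbb, each written 5′ to 3′ on the strand of its gene, with matches to the motifs named after them in capitals.
Mstn: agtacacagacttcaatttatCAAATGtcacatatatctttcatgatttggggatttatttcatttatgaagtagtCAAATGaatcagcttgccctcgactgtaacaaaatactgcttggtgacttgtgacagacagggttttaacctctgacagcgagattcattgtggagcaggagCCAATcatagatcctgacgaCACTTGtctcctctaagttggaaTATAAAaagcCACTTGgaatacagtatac
Inhbb: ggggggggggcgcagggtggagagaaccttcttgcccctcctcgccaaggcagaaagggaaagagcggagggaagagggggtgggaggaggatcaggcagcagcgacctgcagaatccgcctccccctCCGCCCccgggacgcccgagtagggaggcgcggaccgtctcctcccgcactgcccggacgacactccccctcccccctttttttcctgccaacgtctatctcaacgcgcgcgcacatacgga
The motifs searched on both strands were the TATA box TATAAA, the E-box CANNTG bound by myogenic factors, the CCAAT box CCAAT, the GC box GGGCGG, the STAT motif TTCNNNGAA, the FOXO motif GTAAACA, the palindromic SMAD motif GTCTAGAC and the cyclic AMP response element TGACGTCA. Among the promoters of 27025 genes, the shares with a match were 13.0%, 66.0%, 34.5%, 32.9%, 7.18%, 3.09%, 0.174% and 1.62%, in that order. The Mstn window held 1 TATA box, 4 E-boxes and 1 CCAAT box, and 38.4% of its bases were G or C. The Inhbb window held 1 GC box, read on the opposite strand, and no other match, and 68.0% of its bases were G or C, against a median of 52.0% over all promoters. No match overlapped another in either window. Promoters of 8 of the 10 members were matched in the reference, and those of Fst and Smad7 were not analysed here.

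Smad3 and Mstn were the most abundant members in the 20 control mice, and the activin subunits the least. The mean level was 29.1 ± 6.13 TPM (SD, n = 20) for Smad3 and 23.7 ± 14.9 TPM for Mstn, and Smad3 exceeded Mstn in 13 of 20 controls. Acvr2a followed at 8.80 ± 1.12 TPM, then Fst at 6.09 ± 1.13 TPM, Smad7 at 5.66 ± 1.22 TPM and Acvr2b at 4.85 ± 1.10 TPM. The ranges of these neighbors overlapped, with Fst above Smad7 in 14 of 20 controls and Smad7 above Acvr2b in 15. Fstl3 stood at 1.79 ± 0.432 TPM, below Acvr2b in all 20 controls, and Gdf11 at 1.35 ± 0.331 TPM. Inhbb (0.894 ± 0.235 TPM) and Inhba (0.888 ± 1.30 TPM) were close in mean, but Inhbb was the higher in 17 of 20 controls, and Inhba reached 5.47 TPM in 1 of them.

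Mstn varied among mice of the same condition more than most genes did. Its residual SD on the log2(TPM + 1) scale was 0.74, at the 95.6th percentile of all genes tested, whose median was 0.33. Gdf11 was among the steadier genes, with a residual SD of 0.22 at the 18.5th percentile. The longest stretch of sequence shared by transcripts of related members was 12 bases for Mstn and Gdf11 and 18 bases for Inhba and Inhbb, well under the 100-base reads.

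**Figure D1:**
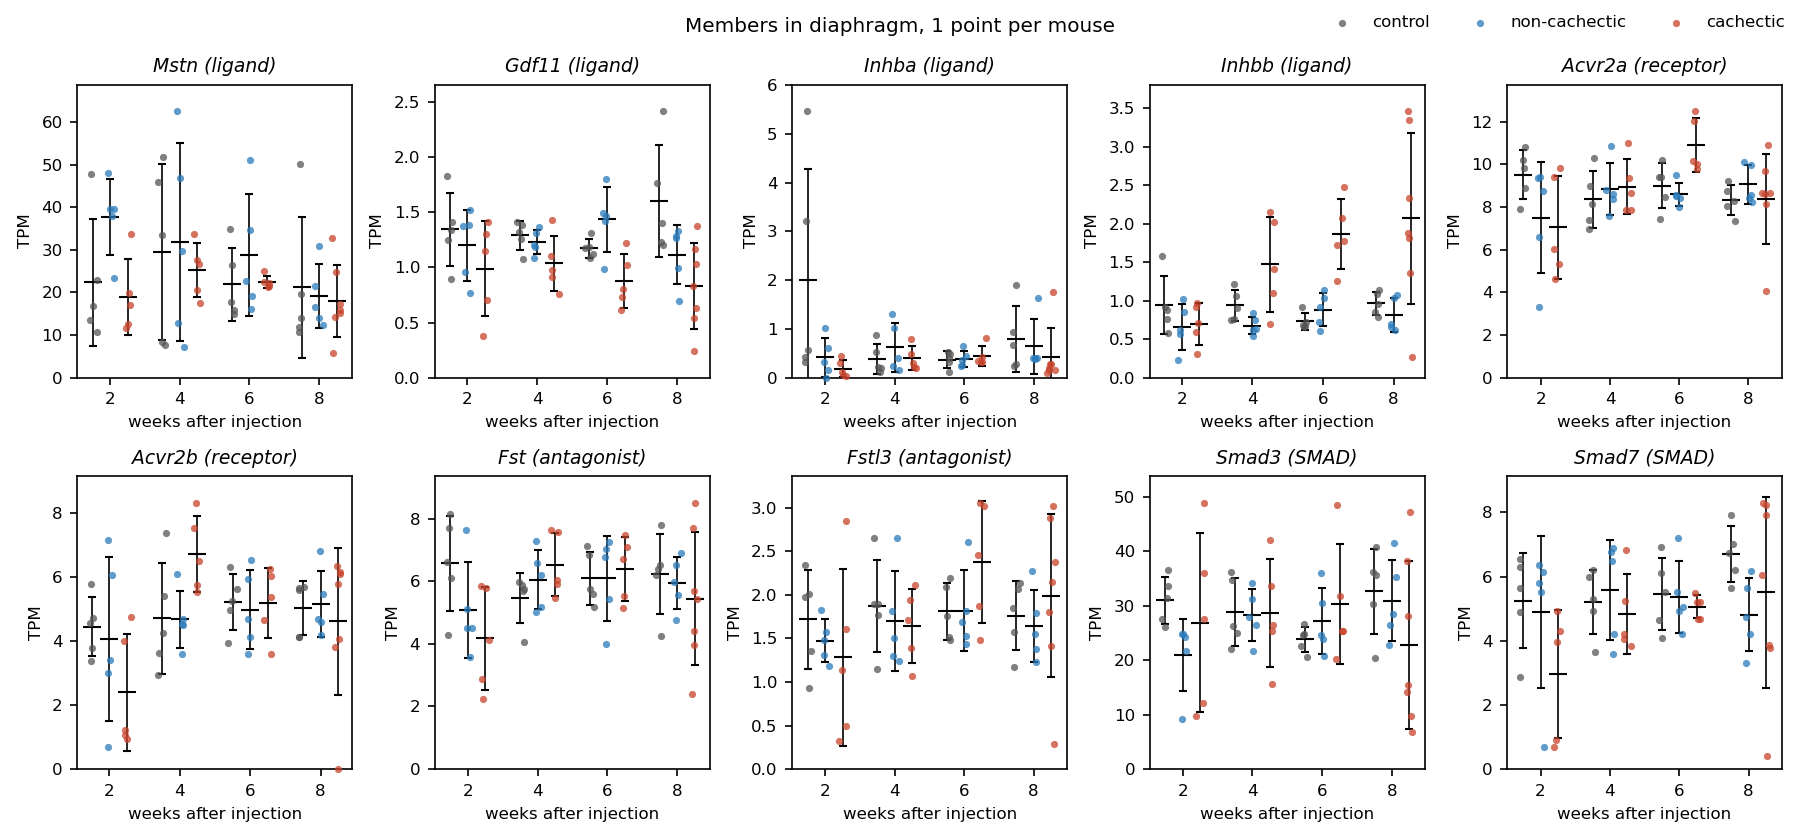
TPM of each member in each mouse against weeks after injection, 1 panel per gene, with control, non-cachectic and cachectic mice in separate colors; horizontal bars are means and vertical bars 1 SD, cut at the axis where they would pass below 0. Inhbb lies at 1.25 to 2.48 TPM in the cachectic mice at 6 weeks, above every control mouse of that week, while Mstn spreads from 7.59 to 51.8 TPM over the 20 controls.

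Some libraries stood apart irrespective of the members. In 4 libraries (cachectic 2 weeks replicates 3 and 4, non-cachectic 2 weeks replicate 5 and cachectic 8 weeks replicate 3), 15069 to 16389 genes were above 0, against 17909 to 19057 in the other 58, and mitochondrially encoded genes took 54.4% to 61.5% of TPM against 32.5% to 50.1%. Liver transcripts were highest in 4 others, control 2 weeks replicates 2, 4 and 5 and cachectic 6 weeks replicate 5, in which 10 liver genes averaged 8.26 to 10.5 on the log2(TPM + 1) scale against 0.37 to 7.66 elsewhere. Groups were compared with limma on log2(TPM + 1) in a single model over the 12 conditions, a gene being called at an adjusted p under 0.05 over all genes tested, and fold changes on this scale understate those of low genes. The median difference of all genes tested between cachectic and control mice was -0.42 at 2 weeks, 0.04 at 4 weeks, 0.17 at 6 weeks and -0.09 at 8 weeks on that scale. Against non-cachectic mice it was -0.20, 0.06, 0.14 and -0.08 at the same weeks. The differences of the members are to be read against these values.

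Inhbb, which encodes the subunit of activin B, was the ligand gene that rose in cachectic diaphragm, with means of 1.86 and 2.07 TPM at 6 and 8 weeks against 0.729 and 0.964 TPM in controls. At 6 weeks it measured 2.07, 2.48, 1.77, 1.72 and 1.25 TPM in the 5 cachectic mice, 0.658, 0.670, 0.916, 0.685 and 0.717 TPM in the controls and 0.727, 0.913, 1.14, 1.03 and 0.608 TPM in non-cachectic mice. Every cachectic mouse lay above every mouse of both other groups. The mean was 1.86 ± 0.454 TPM (SD, n = 5) in cachectic, 0.729 ± 0.107 TPM in control and 0.883 ± 0.217 TPM in non-cachectic mice. On the log2 scale, Inhbb rose by 0.71 (SE 0.19, 95% interval 0.34 to 1.08, limma adjusted p = 0.0106) against controls and by 0.60 against non-cachectic mice (limma adjusted p = 0.0420). The exact two-sided permutation p was 0.00794 for each, the smallest that 5 against 5 mice allow. The call against non-cachectic mice was near the threshold. It held in 2 of the 10 fits that left out 1 mouse of the pair of groups, with limma adjusted p from 0.0245 to 0.129. The log2 difference in these fits was 0.52 to 0.68. The call against controls held in all 10 such fits.

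At 8 weeks, Inhbb was again higher in cachectic mice, with a wide spread. The 7 cachectic mice ranged from 0.273 to 3.46 TPM with a median of 1.88 TPM, the controls measured 0.853, 0.951, 1.09, 1.14 and 0.791 TPM, and the non-cachectic mice 1.07, 0.698, 1.03, 0.658 and 0.614 TPM. Of the 7 cachectic mice, 6 lay above all controls, and the lowest, replicate 3, was 1 of the libraries with few detected genes. Inhbb rose by 0.55 (SE 0.17, 95% interval 0.20 to 0.89, limma adjusted p = 0.0222) against controls and by 0.67 against non-cachectic mice (limma adjusted p = 0.00494). The exact permutation p was 0.0859 and 0.0379. Without cachectic replicate 4, cachectic replicate 7 or control replicate 5, the call against controls was lost (limma adjusted p = 0.0677, 0.0662 and 0.0571). It was also lost with a pseudocount of 0.1 (limma adjusted p = 0.107) and in a fit on the 8-week groups alone (limma adjusted p = 0.347). The call against non-cachectic mice was also lost in that fit (limma adjusted p = 0.252), and Dunn's test called neither difference (adjusted p = 0.472 against controls and 0.144 against non-cachectic mice).

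The rise of Inhbb was not called earlier. At 4 weeks, cachectic mice measured 0.692, 2.15, 1.41, 2.03 and 1.09 TPM against 1.06, 1.22, 0.902, 0.742 and 0.766 TPM in controls, so the groups overlapped (log2 difference 0.32, limma adjusted p = 1.00). Against non-cachectic mice the log2 difference at 4 weeks was 0.53 (limma adjusted p = 0.563, exact permutation p = 0.0238), and it was called when the 4 libraries with few detected genes were left out. None of these libraries was of a 4-week mouse, so the spread estimated over the conditions changed and the values compared did not. At 2 weeks the cachectic mice, at 0.307 to 0.971 TPM, overlapped the controls, at 0.581 to 1.58 TPM, and 1 lay below every control. The change of the difference between cachectic and control mice from 4 to 8 weeks was 0.23 on the log2 scale and was not called (limma adjusted p = 0.783).

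Summed markers of macrophages and neutrophils reached higher levels in cachectic mice than in controls at the weeks when Inhbb was called, and some of the single markers passed the test. Over 6 macrophage markers, the summed level was 136 to 248 TPM in cachectic mice at 6 weeks against 90.6 to 145 TPM in controls, and 124 to 359 TPM against 100.03 to 155 TPM at 8 weeks. In limma, 2 of 6 were called higher at 6 weeks (C1qb, Mrc1) and 3 of 6 at 8 weeks (C1qa, C1qb, Mrc1), where 6.79% and 14.8% of all genes were called. The 5 neutrophil markers summed to 16.1 to 30.5 TPM against 3.90 to 12.7 TPM at 6 weeks and to 8.86 to 73.3 TPM against 4.13 to 15.0 TPM at 8 weeks, with 2 of the 4 tested called higher at 8 weeks (S100a8, Retnlg). At 6 weeks limma called 0 of these 4, with 2 at an unadjusted p under 0.05, and Dunn's test called none of all genes. No marker of either list was at 0 in all mice of these cachectic or control groups, and the part of these cells in the level of Inhbb was not tested. Other lists moved too. Satellite cell markers summed to 24.3 to 34.2 TPM in cachectic mice against 18.2 to 22.2 TPM in controls at 6 weeks, with 1 of 4 tested called higher (Chodl). At 8 weeks they summed to 4.42 to 31.6 TPM against 21.2 to 24.9 TPM. Of 12 muscle fiber markers, 2 were called higher and 1 lower at 6 weeks, and 1 higher and 2 lower at 8 weeks.

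Gdf11, the close relative of myostatin, was lower in cachectic mice than in controls at 8 weeks, with a mean of 0.829 TPM against 1.60 TPM. At 2, 4 and 6 weeks controls averaged 1.34, 1.29 and 1.18 TPM, below their 8-week mean, and cachectic mice 0.990, 1.04 and 0.878 TPM. The 7 cachectic mice ranged from 0.242 to 1.38 TPM with a median of 0.829 TPM, against 1.20, 1.3995, 2.42, 1.23 and 1.77 TPM in controls, and 6 of the 7 lay below every control. On the log2 scale Gdf11 was lower by 0.52 (SE 0.13, 95% interval -0.78 to -0.26, limma adjusted p = 0.00323, exact permutation p = 0.0101), and the call held in all 12 fits that left out 1 mouse of either group. It was lost in a fit on the 8-week groups alone (limma adjusted p = 0.143). Non-cachectic mice, at 1.33, 1.27, 0.698, 0.996 and 1.29 TPM, lay within the range of the cachectic mice, with a mean between those of the other groups. They differed from cachectic mice by a log2 difference of -0.23 (cachectic minus non-cachectic, limma adjusted p = 0.271) and from controls by -0.29 (limma adjusted p = 1.00). At 6 weeks, Gdf11 measured 0.734, 1.02, 1.22, 0.611 and 0.802 TPM in cachectic and 1.12, 1.18, 1.09, 1.17 and 1.31 TPM in control mice, a log2 difference of -0.22 that was not called (limma adjusted p = 0.394). Non-cachectic mice of that week measured 1.47, 1.497, 1.43, 1.81 and 0.986 TPM, and the difference of cachectic from non-cachectic mice was -0.38, not called either (limma adjusted p = 0.102, exact permutation p = 0.0238).

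Mstn showed no called difference in any comparison, and its spread allowed wide intervals. At 6 weeks, cachectic mice measured 21.3, 22.2, 22.4, 21.6 and 24.99 TPM, a narrow range inside that of the controls at 14.9, 26.5, 17.7, 15.8 and 34.9 TPM. At 8 weeks, cachectic mice ranged from 5.89 to 32.8 TPM with a median of 15.8 TPM and controls from 10.7 to 50.1 TPM with a median of 14.0 TPM. The log2 difference between cachectic and control mice was -0.14 at 2 weeks, 0.14 at 4 weeks, 0.11 at 6 weeks and -0.13 at 8 weeks, with standard errors of 0.42 to 0.46 (limma adjusted p from 0.805 to 1.00). The 95% interval at 8 weeks ran from -0.97 to 0.72. The sign at 6 and 8 weeks turned with the scaling of the libraries. The widest separation of Mstn was at 2 weeks, with 37.9, 48.1, 39.5, 39.5 and 23.3 TPM in non-cachectic against 19.8, 33.6, 12.5, 11.7 and 17.1 TPM in cachectic mice (log2 difference -1.02, limma adjusted p = 0.374, exact permutation p = 0.0159). The lowest mice of both groups, cachectic replicates 3 and 4 and non-cachectic replicate 5, were libraries with few detected genes.

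Inhba, which encodes the subunit of activin A, was low everywhere and carried by single mice. At 2 weeks, controls measured 0.565, 5.47, 0.319, 0.423 and 3.22 TPM, non-cachectic mice 1.01, 0.151, 0.319 and 0.614 TPM with 1 mouse listed at 0, and cachectic mice 0.0475, 0.446, 0.112, 0.0347 and 0.291 TPM. The groups overlapped. The highest controls, replicates 2 and 5, were among the libraries with the most liver RNA, but so was control replicate 4, at 0.423 TPM. Inhba was called lower in cachectic than in control mice at 2 weeks, with a log2 difference of -1.03 (SE 0.28, limma adjusted p = 0.0112, exact permutation p = 0.0238), where the median gene differed by -0.42. Without the 4 liver-rich libraries the difference was -0.29 and was not called (limma adjusted p = 0.554). In that fit 0 of all genes were called in this comparison, so the lost call is not particular to Inhba. The summed level of the 10 liver markers was 6.98 to 25510.7 TPM in these controls and 28.9 to 3604.7 TPM in these cachectic mice, and 0 of 10 were called.

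**Figure D2:**
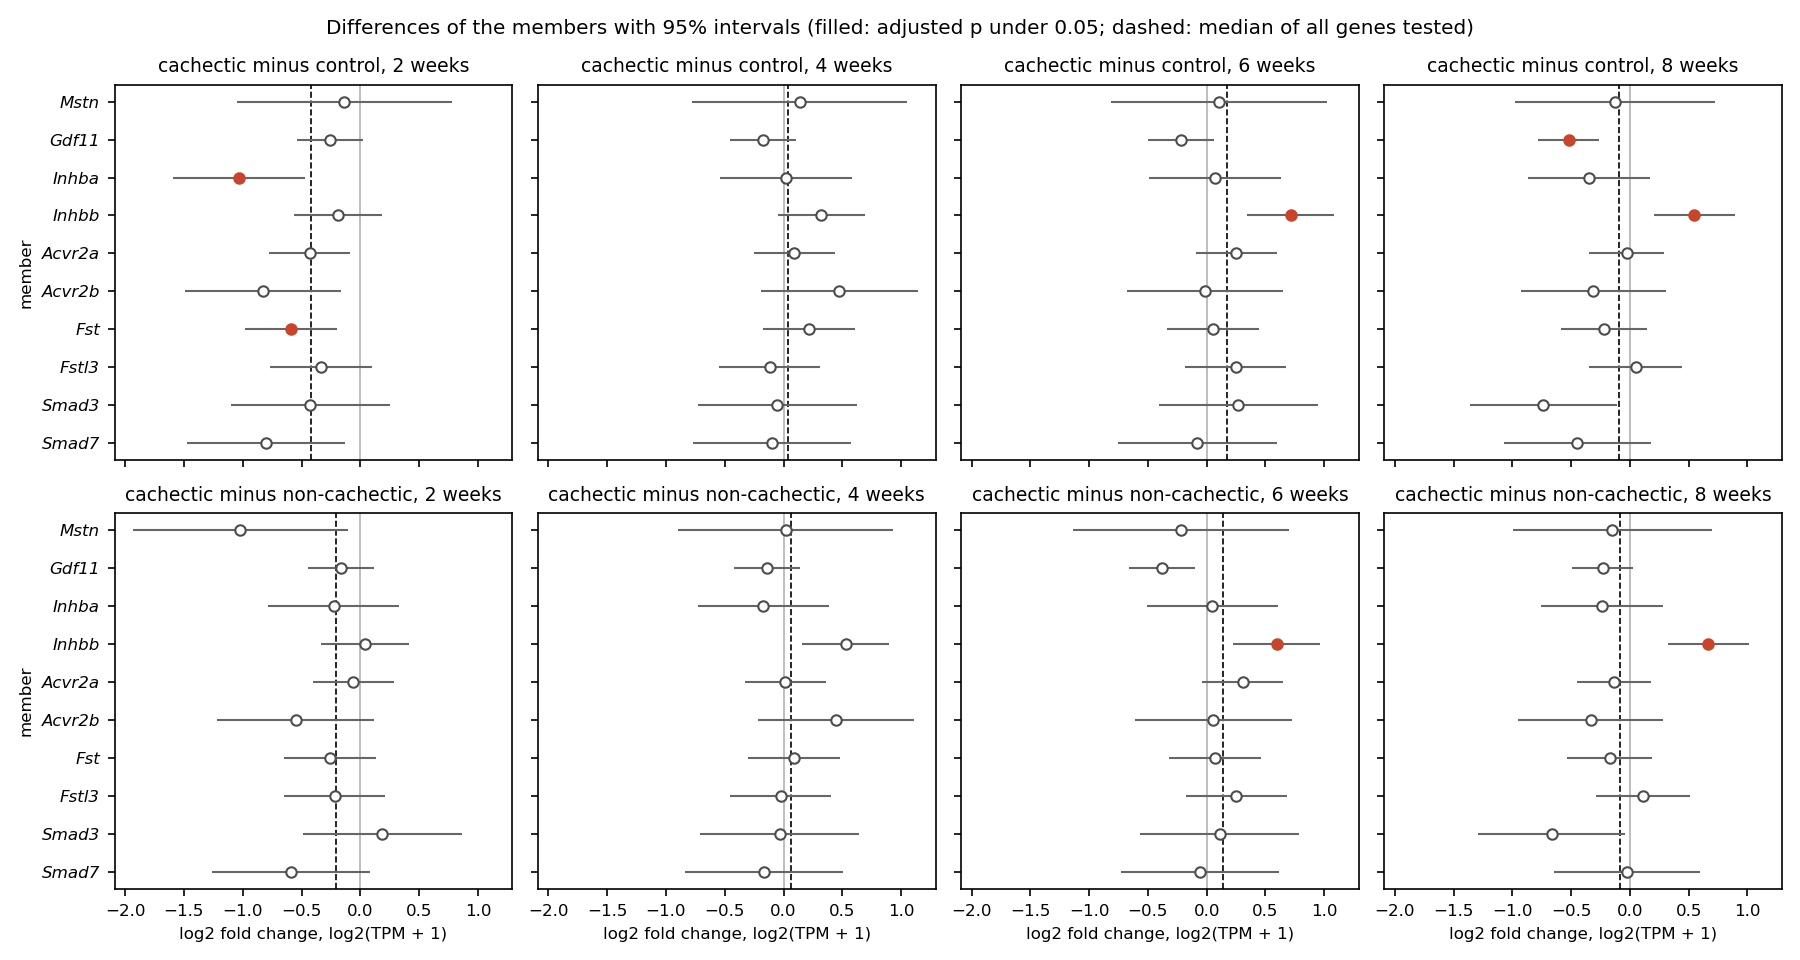
Differences on the log2(TPM + 1) scale for each member at 2, 4, 6 and 8 weeks, cachectic minus control and cachectic minus non-cachectic mice, with 95% confidence intervals from limma; filled points are called at an adjusted p under 0.05 and dashed lines mark the median of all genes tested. Inhbb lies at 0.71 and 0.55 above controls at 6 and 8 weeks and Gdf11 at -0.52 at 8 weeks, while the called Inhba and Fst at 2 weeks go with a median of -0.42 for all genes.

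The receptor genes were not called between cachectic and control mice at any week. Acvr2a measured 10.1, 12.02, 12.5, 9.79 and 9.996 TPM in cachectic mice at 6 weeks, 9.43, 9.40, 10.2, 8.48 and 7.46 TPM in controls and 8.53, 9.49, 7.99, 8.54 and 8.40 TPM in non-cachectic mice. All cachectic mice lay above all non-cachectic mice and overlapped the controls. The log2 difference was 0.25 against controls (limma adjusted p = 0.441) and 0.31 against non-cachectic mice (limma adjusted p = 0.363, exact permutation p = 0.00794). The last exon of Acvr2a meets Orc4 on the opposite strand (median 4.88 TPM over all mice), and how strand entered the counting is not given in the sources used here.

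Acvr2b, the other type II receptor, measured 5.54, 8.32, 6.51, 5.74 and 7.54 TPM in cachectic mice at 4 weeks against 7.37, 5.40, 4.24, 3.63 and 2.93 TPM in controls, and the groups overlapped (log2 difference 0.47, limma adjusted p = 1.00). At 8 weeks, cachectic mice measured 6.17, 3.81, 5.80, 4.05, 6.36 and 6.11 TPM with replicate 3 listed at 0, and controls 4.11 to 5.70 TPM. The log2 difference was -0.31 (limma adjusted p = 0.563), and 0.07 without the 4 libraries with few detected genes.

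Of the antagonists, Fst was called lower at 2 weeks, and Fstl3 at no week. At 2 weeks, Fst measured 5.77, 5.84, 2.89, 2.23 and 4.13 TPM in cachectic and 4.29, 7.71, 6.11, 8.16 and 6.61 TPM in control mice, overlapping groups in which the lowest cachectic mice were those with few detected genes. The log2 difference was -0.59 (SE 0.19, limma adjusted p = 0.0259, exact permutation p = 0.0476), close to the median gene at -0.42. Scaling by the median ratio of genes reduced it to -0.18, and without either set of 4 libraries it was not called (limma adjusted p = 0.547 and 0.519). Leaving out either set gave 0 calls among all genes at 2 weeks, so that lost call is not particular to Fst. Fst at 8 weeks ranged from 2.41 to 8.51 TPM in cachectic and from 4.24 to 7.79 TPM in control mice.

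Fstl3, a follistatin-like binding protein, measured 3.06, 3.02, 2.46, 1.87 and 1.48 TPM in cachectic mice at 6 weeks against 1.51, 1.76, 2.09, 2.20 and 1.48 TPM in controls. Of the 5 cachectic mice, 3 lay above all controls, and the difference was not called (log2 difference 0.25, limma adjusted p = 0.560).

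Smad3, which carries the signal of activins and myostatin to the nucleus, was uneven among cachectic mice at 8 weeks. The 7 mice measured 9.67, 14.1, 6.86, 28.2, 47.3, 15.5 and 38.3 TPM, against 36.2, 40.8, 30.4, 35.6 and 20.4 TPM in controls and 28.6, 41.5, 22.7, 26.5 and 35.3 TPM in non-cachectic mice. Of the 7, 4 lay below every mouse of both other groups and 1 above them all. The log2 difference was -0.74 (SE 0.31, limma adjusted p = 0.108, exact permutation p = 0.136) against controls, which was called without cachectic replicate 5 (limma adjusted p = 0.0226) or replicate 7 (limma adjusted p = 0.0392). Without cachectic replicate 3, the lowest mouse and a library with few detected genes, the difference was -0.51, and with library weights in limma it was 0.016. At 2 weeks, Smad3 in non-cachectic mice (9.21 to 24.9 TPM) did not overlap controls (26.1 to 36.7 TPM), with a log2 difference of -0.61 that was not called (limma adjusted p = 0.475, exact permutation p = 0.00794).

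Smad7, the inhibitory SMAD, measured 3.86, 3.77, 0.414, 7.93, 6.06, 8.30 and 8.25 TPM in cachectic mice at 8 weeks against 5.65, 6.20, 6.75, 7.00 and 7.93 TPM in controls. Cachectic mice lay on both sides of the controls, and the log2 difference was -0.45 (limma adjusted p = 0.380). At 6 weeks, cachectic mice stood at 4.68 to 5.49 TPM within the control range of 4.09 to 6.91 TPM.

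Counted over the 10 members, cachectic mice differed from controls in 2 members at 2 weeks (Inhba and Fst, both lower), when 29.3% of all genes tested were called. The count was 1 at 6 weeks (Inhbb) with 6.79% of all genes called, and 2 at 8 weeks (Inhbb higher, Gdf11 lower) with 14.8%. Counts of 1 or 2 among 10 members are near what these shares would give and are no result about the members. At 4 weeks 0 members were called in limma, with 0 at an unadjusted p under 0.05, where 0.0221% of all genes were called, and Dunn's test gave 0 adjusted and 1 unadjusted call. Against non-cachectic mice, Inhbb was the 1 member called at 6 weeks and at 8 weeks, where 5.85% and 12.9% of all genes were called. The comparisons with controls and with non-cachectic mice share the cachectic mice. At 2 and 4 weeks 0 members were called against non-cachectic mice in limma, 1 each at an unadjusted p under 0.05 (Mstn, Inhbb), with 0% and 0.0295% of all genes called, and Dunn's test gave 0 adjusted calls and 1 and 2 unadjusted. Dunn's test, run over the 12 conditions as an alternative, called only Gdf11 at 8 weeks against controls (adjusted p = 0.0458) among the members.

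Non-cachectic melanoma left the members without a call in limma at 2, 4, 6 and 8 weeks, where 4.43%, 0%, 0% and 0% of all genes were called against controls. At an unadjusted p under 0.05 there were 2, 0, 0 and 1 members (Inhba and Acvr2a at 2 weeks, Gdf11 at 8 weeks), and Dunn's test gave 0 adjusted and 2, 0, 0 and 1 unadjusted calls. Between 4 and 8 weeks, 0 members were called within controls (0% of all genes, 0 unadjusted in limma and in Dunn's test) and 0 within cachectic mice (2.07% of all genes), with 1 unadjusted call in limma, Acvr2b, and 0 in Dunn's test. The change of the difference between cachectic and control mice over that time was called for 0 members and 0% of all genes, with 0 unadjusted calls in limma, and Dunn's test was not run on it.

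Groups without overlap were counted in the same way. Cachectic and control mice did not overlap for 1 of 10 members at 6 weeks (Inhbb; 18.9% of all genes) and for 0 of 10 at 8 weeks (6.34%). Cachectic and non-cachectic mice did not overlap for 2 of 10 at 6 weeks (Inhbb and Acvr2a; 16.9%) and for 0 of 10 at 8 weeks (4.88%). Non-cachectic and control mice at 2 weeks did not overlap for 1 of 10 (Smad3; 1.07%).

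**Figure D3:**
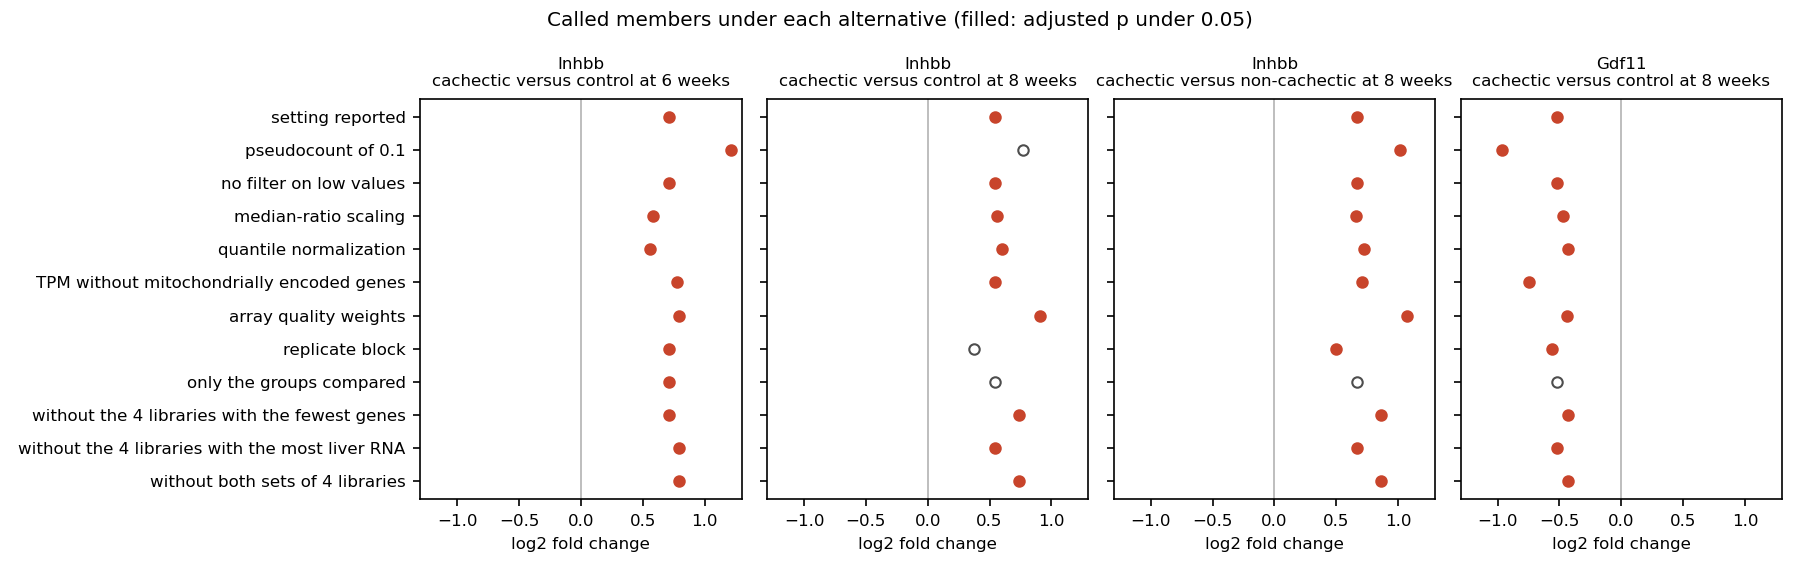
Differences on the log2 scale with their limma calls for Inhbb (cachectic minus control at 6 and 8 weeks, cachectic minus non-cachectic at 8 weeks) and Gdf11 (cachectic minus control at 8 weeks) under the 12 limma settings tried; filled points are called at an adjusted p under 0.05. Inhbb at 6 weeks stays between 0.56 and 1.22 and is called in each of these, whereas Inhbb against controls at 8 weeks loses its call under several.

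Of 72 further genes of the wider pathway (other ligands, processing proteases, receptors, binding proteins, SMADs and their targets), 71 were in the table and 60 were tested. At 6 weeks, 4 of 60 were higher and 0 lower in cachectic than in control mice (6.67%, median log2 difference 0.11, against 6.79% and 0.17 over all genes). At 8 weeks, 2 were higher and 8 lower (16.7%, median -0.23, against 14.8% and -0.09). At 2 weeks, 0 were higher and 16 lower (26.7%, against 29.3%), and without the 4 libraries with few detected genes 0 were called, as were 0 of all genes. At each week the share of the list was near that of all genes, so these counts are no result about the pathway.

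Noggin (Nog), a secreted antagonist of bone morphogenetic proteins (BMPs), had the largest rise among the called genes of the list at both weeks. Nog stood at 21.5 ± 4.43 TPM (SD, n = 5) in cachectic and 7.45 ± 1.82 TPM in control mice at 6 weeks, and at 20.8 ± 10.9 TPM (n = 7) and 8.14 ± 1.81 TPM at 8 weeks. It rose by 1.42 (limma adjusted p = 0.00605) and 1.00 (limma adjusted p = 0.0246) on the log2 scale. Decorin (Dcn), a matrix proteoglycan that binds TGF-β and myostatin, rose to 975 ± 157 TPM from 595 ± 99.2 TPM at 6 weeks (log2 difference 0.71, limma adjusted p = 0.00708) and by 0.49 at 8 weeks (limma adjusted p = 0.0317). At 6 weeks, Bmpr2, a type II receptor for BMPs, rose by 0.42 (limma adjusted p = 0.0453) and Tll1, a tolloid-like protease of the family that releases latent ligands, by 0.58 (limma adjusted p = 0.0275). With median-ratio scaling at 6 weeks, Nog was still called, whereas Dcn, Bmpr2 and Tll1 were not (limma adjusted p = 0.209, 0.369 and 0.0536).

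The genes of the list called lower at 8 weeks, named here because they were called, included ligands, a protease, receptors and a feedback target. Tgfb2, which encodes TGF-β2, fell by 1.02 on the log2 scale (limma adjusted p = 0.00271), to 4.51 ± 1.90 TPM from 9.62 ± 1.93 TPM, and the BMP ligands Bmp2 and Bmp5 fell by 0.43 and 0.57 (limma adjusted p = 0.0206 and 0.0093). Pcsk6, a proprotein convertase, fell by 1.17 to 16.8 ± 7.18 TPM from 36.0 ± 8.55 TPM (limma adjusted p = 0.00417). The type I receptor gene Acvr1 fell by 0.73 (limma adjusted p = 0.0105) and the BMP co-receptor gene Hjv (listed as Hfe2) by 0.87 (limma adjusted p = 0.0121). Fstl1, a secreted follistatin-like glycoprotein, fell by 0.97 to 21.5 ± 10.3 TPM from 40.3 ± 8.12 TPM (limma adjusted p = 0.00297), and Pmepa1, a TGF-β target that restrains SMAD signaling, fell by 0.98 to 4.58 ± 1.98 TPM from 9.24 ± 1.505 TPM (limma adjusted p = 0.00699). Bmp5 was not called with median-ratio scaling (limma adjusted p = 0.0700), and a fit on the 8-week groups alone kept the call of Bmp5 and lost those of Nog, Dcn and the other genes that fell.

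Markers of fibro-adipogenic cells, the connective-tissue progenitors of muscle, moved at the same time. At 8 weeks 3 of 7 were called lower (Col1a1, Col3a1, Lum) and 1 higher (Ly6a), with a median log2 difference of -0.66. Their summed level was 244 to 740 TPM in cachectic and 364 to 592 TPM in control mice, none was at 0 in all mice of a group, and their part in the pathway genes was not tested.

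Against non-cachectic mice, 2 of 60 were higher at 6 weeks (Dcn, Nog). At 8 weeks, 1 was higher (Nog) and 5 lower (Tgfb2, Pcsk6, Acvr1, Hjv, Fstl1), with log2 differences of 1.19 for Nog and -0.70 to -1.08 for the others. The share of the list called was below that of all genes, which was 5.85% at 6 weeks and 12.9% at 8 weeks. These counts against non-cachectic mice are therefore no result about the pathway. Leaving out the 4 libraries with few detected genes gave 15 higher and 1 lower against controls at 6 weeks and 13 higher and 10 lower at 8 weeks, so the counts depended on those libraries. Those counts are 26.7% and 38.3% of the list against 31.2% and 34.6% of all genes in the same fits, and are no result about the pathway. None of these libraries was of a 6-week mouse, so at 6 weeks the spread estimated over the conditions changed and the values compared did not. Median-ratio scaling gave 4 higher and 3 lower at 6 weeks (11.7%, against 7.45% of all genes) and 5 higher and 14 lower at 8 weeks (31.7%, against 24.1%), and its higher calls at 6 weeks were Nog, Tgfbr1, Tgfbr2 and Tgfbr3, the last 3 named after their values were seen.

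Ubiquitin ligases that mark muscle atrophy were looked at beside the pathway, with differences between cachectic and control mice at 6 and 8 weeks that did not pass the test. Trim63, which encodes MuRF1, had log2 differences of 1.29 (limma adjusted p = 0.0665) and 0.94 (limma adjusted p = 0.124), Fbxo32, which encodes atrogin-1, 0.59 and 0.10 (limma adjusted p = 0.482 and 0.910), and Fbxo30, which encodes MUSA1, 0.44 and -0.18 (limma adjusted p = 0.226 and 0.596). At 8 weeks Trim63 ranged from 29.4 to 1303 TPM (median 214 TPM) in the 7 cachectic mice, lowest in replicate 3 with few detected genes, and from 74.5 to 149 TPM in controls.

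**Figure D4:**
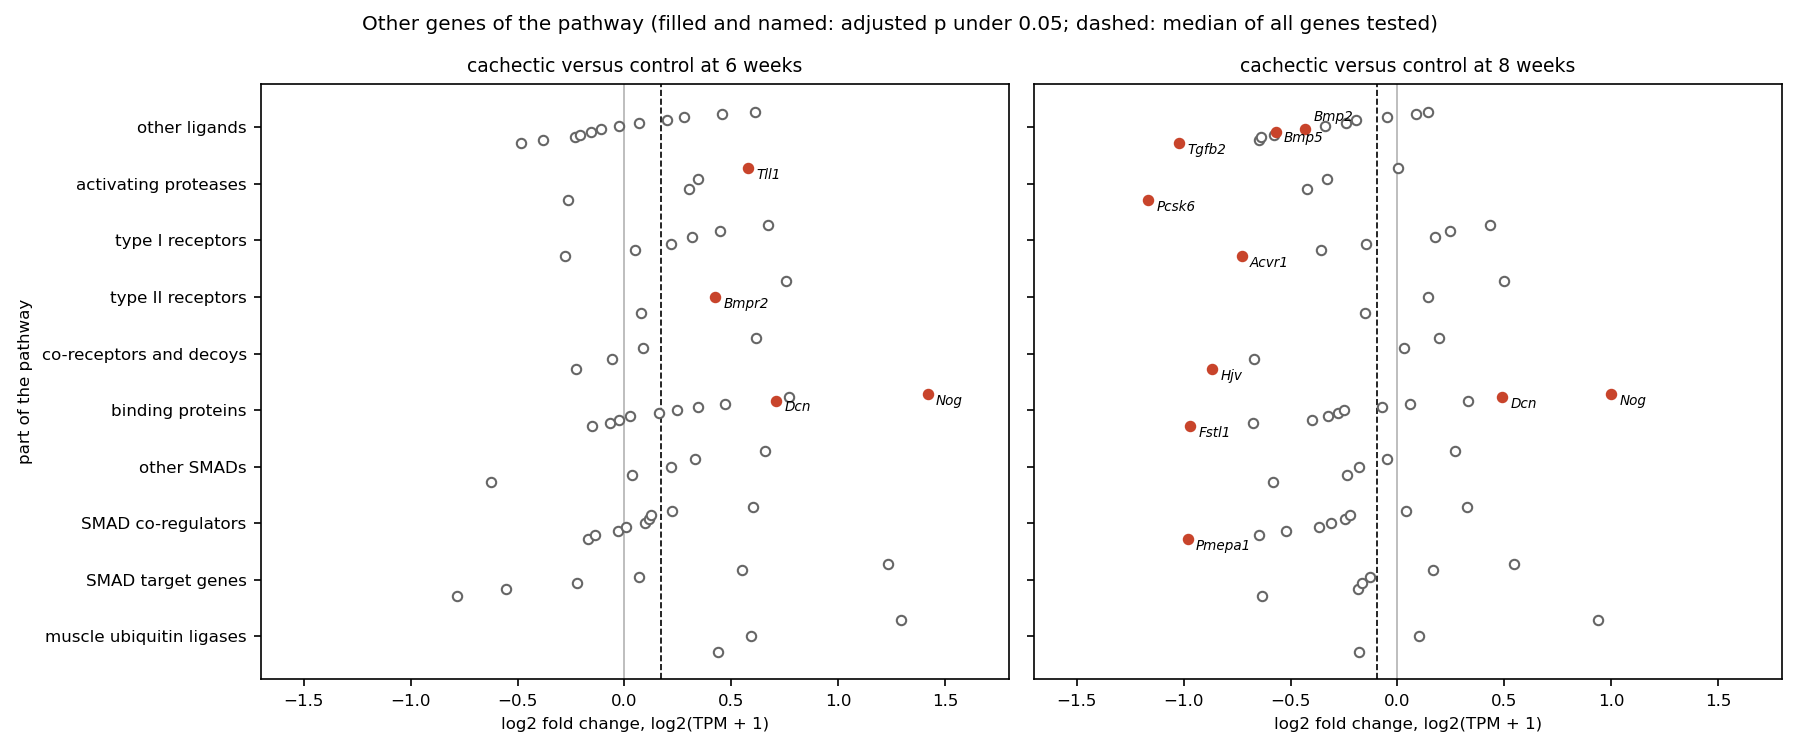
Differences on the log2 scale, cachectic minus control mice at 6 and 8 weeks, for the 60 further pathway genes tested and 3 ubiquitin ligase genes, each as 1 point; filled points are called in limma at an adjusted p under 0.05. At 6 weeks 4 of 60 are called, all higher with Nog at 1.42, and at 8 weeks 10 are called, 8 of them lower, down to Pcsk6 at -1.17.

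The genes whose levels over the 62 mice ran most like Inhbb were Bcl3 (Pearson r = 0.92), a partner of NF-κB, Litaf (r = 0.89) and Slc3a2 (r = 0.89), an amino acid transporter subunit. For Gdf11 they were Myadm (r = 0.82), Mrpl49 (r = 0.81), a mitochondrial ribosomal protein gene, and Sh3bp1 (r = 0.81). Without the 4 libraries with few detected genes, r was 0.88 to 0.92 for the first 3 and 0.71 to 0.72 for the second 3 over 58 mice. These correlations describe log2(TPM + 1) values that share the same libraries, groups and scaling.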

How the data were processed

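Diaphragm RNA from 62 mice was sequenced by the authors as 100-base paired-end reads on an Illumina NovaSeq, aligned to mm10 (GRCm38) in CLC Genomics Workbench and deposited as TPM per gene. The labels name a stranded mRNA kit and the methods another TruSeq kit. The annotation release and the handling of strand and of reads with several positions are not given in the sources used here. TPM keep no read totals, so the depth is unknown. The labels give replicates per condition and do not state cages or litters, so p-values measure the spread between these samples. In limma this spread was estimated over all 12 conditions and not within the groups compared. For Inhbb the residual SD on the log2 scale was 0.29, against an SD of 0.61 in cachectic mice at 8 weeks. 0 columns held values of no sample.

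All genes reaching 1 TPM in 5 or more mice (13578 of 23900 above 0) were fitted with limma 3.58.1 in R 4.3.3 (mean-variance trend) on log2(TPM + 1), with 1 mean for each of the 12 conditions, and p-values were adjusted by Benjamini-Hochberg within each comparison over all genes tested. Exact two-sided permutation tests of single members used scipy 1.17.1 and are unadjusted. In simulated data for cachectic versus control mice at 8 weeks over 13578 genes, the fit recovered 75 of 100 genes changed by 1 on the log2 scale and 97 of 100 changed by 2, with 8 false calls. The simulated noise was independent for each gene, without shifts of whole libraries, and only genes with a mean log2 value above 1 were changed. The called differences of Inhbb and Gdf11 were smaller than 1, so these rates do not apply to them. Gene positions come from GENCODE on GRCm38. Members and lists were chosen with earlier results of these data known. All 10 members are named. Of the pathway list, the genes called in cachectic versus control mice at 6 or 8 weeks are named (at most 12), and for each member called there the 3 genes with the highest correlation. Lower calls of the pathway list against non-cachectic mice at 6 weeks are not reported here.

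Alternatives were a pseudocount of 0.1, no filter, median-ratio scaling, quantile normalization, TPM without mitochondrially encoded genes, array quality weights, replicate number as a block, fits on the groups compared only, Dunn's test as in the study's methods, leaving out each mouse, and leaving out the 4 libraries with the fewest genes or the 4 with the most liver RNA. Leaving out both sets was added after seeing the data.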

Additional observations from a re-analysis of the deposited data

Results flagged for a closer look

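In 10 of 120 groups of a member and a condition, 1 mouse lay far from the others of its group by Dixon's test, where chance alone would flag about 6.0 of 120. Of the 10, 5 were in the libraries with few detected genes. In cachectic mice at 8 weeks, replicate 3 was lowest for Acvr2a (4.07 TPM, against 8.16 to 10.9 TPM in the others), for Acvr2b (listed at 0.0, against 3.81 to 6.36 TPM) and for Smad7 (0.414 TPM, against 3.77 to 8.30 TPM). In non-cachectic mice at 2 weeks, replicate 5 was lowest for Smad3 (9.21 TPM, against 21.7 to 24.9 TPM) and Smad7 (0.703 TPM, against 5.53 to 6.35 TPM).

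Inhba had a single high mouse in 3 groups. Replicate 3 of the non-cachectic mice at 8 weeks stood at 1.64 TPM against 0.373 to 0.403 TPM, replicate 5 of the cachectic mice at 6 weeks, a liver-rich library, at 0.810 TPM against 0.312 to 0.428 TPM, and replicate 2 of the cachectic mice at 8 weeks at 1.76 TPM against 0.0879 to 0.274 TPM. Among controls, Inhbb was high in replicate 3 at 6 weeks (0.916 TPM, against 0.658 to 0.717 TPM) and Fst was low in replicate 5 at 4 weeks (4.06 TPM, against 5.69 to 5.96 TPM).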

How the results depend on the processing

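The steadiest calls were Inhbb in cachectic versus control mice at 6 weeks, which held in every limma alternative, and Gdf11 at 8 weeks, which was lost only in fits on the groups compared. Of the counts of members called, 143 stayed within 1.5 times the value reported and 36 moved. Many comparisons had a reported count of 0, where a count that stayed is 0 again. These totals therefore do not measure how steady the calls are. In what follows, percentages are the share of all genes called in the same fit, against which the counts are to be read. Cachectic versus control mice at 2 weeks (2 called) gave 1 with median-ratio scaling (17.6%). The count was 0 with quantile normalization (16.0%) and array weights (1.13%). It was also 0 with the groups compared only, Dunn's test, and without the few-gene, the liver-rich or both sets of libraries. In each of these last settings 0 of all genes were called. With array weights, the same comparison gave 1 at 4 weeks (7.87%) and 3 at 6 weeks (48.4%). Dunn's test gave 0 at 6 weeks, with 0 of all genes called. At 8 weeks the count was 1 with a pseudocount of 0.1 (13.7%) or Dunn's test (1121 genes) and 0 with the groups compared only (4.07%). Against non-cachectic mice, the count at 4 weeks was 1 with array weights (8.21%) and without the few-gene (2.23%) or both sets (2.91%). At 6 weeks it was 0 with a pseudocount of 0.1 (4.95%), no filter (3.46%) or Dunn's test (0 of all genes). It was 2 with median-ratio scaling (7.66%), quantile normalization (9.24%) or the groups compared only (24.3%). It was 3 with array weights (40.6%) and without the few-gene (27.2%) or both sets (33.6%). At 8 weeks it was 2 without mitochondrially encoded genes (22.8%) or with array weights (40.9%). It was 0 with the groups compared only (2.68%) or Dunn's test (607 genes). Array weights gave 2 for non-cachectic versus control mice at 2 weeks (13.0%) and 1 for the change from 4 to 8 weeks (7.77%). For cachectic mice at 8 versus 4 weeks they gave 2 (23.1%), and leaving out the few-gene (12.3%) or both sets (13.9%) gave 1.

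Leaving out 1 mouse gave 0 to 5 calls at 2 weeks, 0 without cachectic replicate 3 or control replicate 2 or 5. At 8 weeks it gave 1 to 3. Against non-cachectic mice it gave 0 to 1 at 2 weeks, 0 to 1 at 6 weeks and 1 to 2 at 8 weeks, and for non-cachectic versus control mice at 2 weeks 0 to 1. The shares of all genes called in these fits are not reported here, so these counts are no result about the members. The replicate number paired no samples (0 of 12 comparisons with every pair correlated above 0.1, and 11 of 60 samples correlated best with their own number). With the replicate block, 1 member, Gdf11, was called in cachectic versus control mice at 8 weeks instead of 2, with 15.7% of all genes called. Inhbb stood at 0.37 in that fit (limma adjusted p = 0.129), and no other count of members moved. Replicate numbers 6 and 7 occurred only in cachectic mice at 8 weeks, 1 mouse each. The block fitted these mice exactly, so its 8-week estimates rested on cachectic replicates 1 to 5. Of the pathway genes, Nog and Dcn were not called against controls at 8 weeks with the block (limma adjusted p = 0.113 and 0.0705), nor was Nog against non-cachectic mice.

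Most signs that turned were of differences not called. Fst in cachectic versus control mice at 2 weeks, called in the report, was 0.014 without both sets, and array weights called Smad7 higher where the reported value was lower and not called (limma adjusted p = 0.00168 against non-cachectic mice at 8 weeks and 0.00487 for 8 versus 4 weeks in cachectic mice). On the log2 scale, cachectic minus control, Mstn at 6 weeks was -0.078 with median-ratio scaling, -0.082 with quantile normalization, -0.056 without mitochondrially encoded genes and -0.026 with array weights, and at 8 weeks 0.027 with median-ratio scaling and 0.29 with array weights. Fst at 6 weeks was -0.11, -0.15 and -0.095 under the first 3 of these. Acvr2a at 8 weeks was 0.11 with median-ratio scaling, 0.099 with quantile normalization, 0.11 with array weights and 0.11 without the few-gene or both sets. Acvr2b was 0.069 with array weights and 0.087 without the liver-rich or both sets at 6 weeks, and 0.049 with array weights and 0.070 without the few-gene or both sets at 8 weeks. Inhba at 6 weeks was -0.014 without the liver-rich or both sets. Fstl3 at 8 weeks was -0.027 with a pseudocount of 0.1, -0.065 without mitochondrially encoded genes and -0.10 with the replicate block. Array weights gave 0.016 for Smad3 and 0.076 for Smad7 at 8 weeks, and 0.084 for Smad3 against non-cachectic mice. Smad7 against non-cachectic mice at 8 weeks was 0.025 with quantile normalization, 0.58 with array weights and 0.31 without the few-gene or both sets, and in cachectic mice at 8 versus 4 weeks 0.0060 with median-ratio scaling, 0.015 with quantile normalization, 0.60 with array weights and 0.30 without the few-gene or both sets. For non-cachectic versus control mice at 2 weeks, Inhba was 0.053 and Fst 0.046 without both sets. Leaving out 1 mouse gave -0.0087 to 0.28 for Mstn, -0.014 to 0.11 for Inhba and -0.094 to 0.087 for Acvr2b at 6 weeks, and -0.30 to 0.24 for Mstn, -0.092 to 0.11 for Acvr2a, -0.41 to 0.070 for Acvr2b and -0.035 to 0.24 for Fstl3 at 8 weeks. Smad7 gave -0.15 to 0.31 against non-cachectic mice and -0.15 to 0.30 for 8 versus 4 weeks. The causes were not tested.

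Without read counts, the precision of low genes such as Inhba, Inhbb and Gdf11 cannot be stated from depth. Groups of 5 to 7 mice left wide intervals for Mstn.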
